A study of Mus musculus with 4 samples.

Results

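Genes of the alcohol dehydrogenase (ADH), aldehyde dehydrogenase (ALDH) and aldo-keto reductase (AKR) families were examined in 4 livers from C57BL/6J mice, all male and 18 weeks old. Every mouse had received the FAT-MASH diet, used to model metabolic dysfunction-associated steatohepatitis (MASH), and had been treated with resolvin D1 (RvD1), a lipid mediator of the resolution of inflammation. The dose and schedule are not given in the sources used here. The labels describe 1 group and number its libraries as livers 1 to 4. They do not state that each liver came from a different animal, so the spread between libraries may be technical. No untreated, diet-only or vehicle-treated liver was analysed here, so the values below describe levels and their spread, and no effect of the diet or of RvD1 can be read from them. Members were the rows whose symbol begins with Aldh, Adh or Akr and a digit, plus Adhfe1, leaving out Aldh1a1, Aldh1a2 and Adh1. The rule found 42 of the 24138 rows, of which 19 were ALDH genes, 6 ADH genes and 17 AKR genes.

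The 3 families handle alcohols, aldehydes and ketones, many of which are reactive or toxic. ADH enzymes oxidise alcohols to aldehydes with NAD+, ALDH enzymes oxidise aldehydes to acids, and AKR enzymes mostly run in the reducing direction with NADPH. In liver they act on ethanol, on aldehydes released by lipid peroxidation, on intermediates of amino acid breakdown and on the steroid ring of bile acid precursors. Most are enzymes of hepatocytes.

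The deposited table gives no unit, and its values were taken as FPKM. These are fragments scaled by transcript length and by the number of mapped fragments, so that levels of different genes can be set side by side. By an approximate estimate of the depth, 1 fragment per kilobase of transcript was worth between 0.0498 and 0.0531 FPKM in the 4 libraries. Hepatocyte markers were high, with 5 of 6 expressed, but the sixth, Alb, was listed at 0 in every library, as can happen where an estimate fails. A gene listed at 0 is therefore reported only as that. Bulk values cannot tell fewer cells of a type from less RNA per cell. Liver 2 stood apart in its acute phase genes, with 9 of 9 above their 4-liver mean and a median deviation of 1.30 in log2(FPKM + 1).

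Promoter windows were read from RefSeq for GRCm38.p6, from 250 bases before to 50 bases after the start, for the 32 members with an entry. A pair of them is shown because these nearby genes of chromosome 13 were alike in level and in promoter letters. Akr1c12 lies on the minus strand (chr13:4279350-4279649) and Akr1c13 on the plus strand (chr13:4190937-4191236). Capitals mark the letters that differ between them or face a gap in a global alignment.
Akr1c12: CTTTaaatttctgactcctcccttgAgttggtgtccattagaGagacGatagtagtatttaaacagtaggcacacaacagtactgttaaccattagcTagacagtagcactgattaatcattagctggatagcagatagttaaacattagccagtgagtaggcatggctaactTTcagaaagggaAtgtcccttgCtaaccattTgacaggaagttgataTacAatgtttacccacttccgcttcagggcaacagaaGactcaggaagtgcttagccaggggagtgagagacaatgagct
Akr1c13: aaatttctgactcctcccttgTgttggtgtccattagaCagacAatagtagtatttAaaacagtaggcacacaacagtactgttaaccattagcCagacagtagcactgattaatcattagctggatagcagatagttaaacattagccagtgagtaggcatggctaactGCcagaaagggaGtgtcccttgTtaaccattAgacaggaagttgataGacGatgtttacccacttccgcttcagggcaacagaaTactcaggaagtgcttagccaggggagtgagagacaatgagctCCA
The windows were 93.4% identical, with 284 identical positions, 12 mismatches and 8 gap positions. Of the 496 pairs of member windows this was the only 1 with an identity of 60% or more. The next was Akr1c13 with Akr1c19, at 58.8%.

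Another pair is shown because both genes were among the 5 highest members although their windows differ in base composition. The window of Akr1c6 (chr13:4434093-4434392, plus strand) has no CpG and 36.0% G and C. The window of Aldh3a2 (chr11:61267137-61267436, minus strand) has 21 CpG and 61.7% G and C. Capitals mark each CpG.
Akr1c6: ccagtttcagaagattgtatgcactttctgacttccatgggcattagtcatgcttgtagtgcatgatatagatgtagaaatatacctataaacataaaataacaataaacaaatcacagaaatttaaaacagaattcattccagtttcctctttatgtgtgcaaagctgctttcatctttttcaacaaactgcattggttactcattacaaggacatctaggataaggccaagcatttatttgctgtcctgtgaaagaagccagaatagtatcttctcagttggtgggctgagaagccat
Aldh3a2: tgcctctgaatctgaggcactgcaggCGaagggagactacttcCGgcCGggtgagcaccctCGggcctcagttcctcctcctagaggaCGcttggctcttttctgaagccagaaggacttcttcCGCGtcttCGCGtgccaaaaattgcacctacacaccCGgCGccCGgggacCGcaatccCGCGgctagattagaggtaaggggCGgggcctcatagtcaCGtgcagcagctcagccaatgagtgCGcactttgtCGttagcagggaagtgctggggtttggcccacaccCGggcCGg
At least 10 CpG were found in 8 of the 26 expressed members with a window, against 43.5% of all 32851 windows of this length. The members have 1 window each, whereas all windows include genes with several start sites and genes not expressed here. The same holds for the 2 letter searches that follow. The letters TATAAA, searched on each gene's own strand, occurred in 3 of the 26, those of Akr1c6, Adh5 and Aldh1a7, against 8.32% of all windows. The letters TGACNNNGC, the core of the antioxidant response element bound by NRF2, were searched on both strands and occurred in Aldh9a1 and Akr1c19 among the 26, against 12.4% of all windows. These matches describe letters in a window and do not mark binding sites. The start sites behind the windows of Aldh5a1, Aldh16a1 and Adh7 lie 1388, 5528 and 7056 bases from the deposited 5′ end of the gene.

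Most members were expressed. A mean of at least 1 FPKM was reached by 32 of 42 members (76.2%), against 43.7% of all rows. Of these, 13 had a mean of at least 100 FPKM, 12 lay between 10 and 100 FPKM and 7 between 1 and 10 FPKM. The median of the expressed members was 63.5 FPKM, against 7.83 FPKM over all 10541 expressed genes. Summed over the 42 members the level was 4447, 4221, 4532 and 5056 FPKM in livers 1 to 4, which is 0.855 ± 0.0348% of the summed FPKM of each library (SD, n = 4). ALDH genes made up 58.04 ± 2.47% of this sum, AKR genes 33.7 ± 2.197% and ADH genes 8.27 ± 0.581% (each SD, n = 4). The 5 highest members, Aldh2, Akr1c6, Aldh1l1, Akr1a1 and Aldh3a2, held 58.7 ± 1.10% of it (SD, n = 4).

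**Figure D1:**
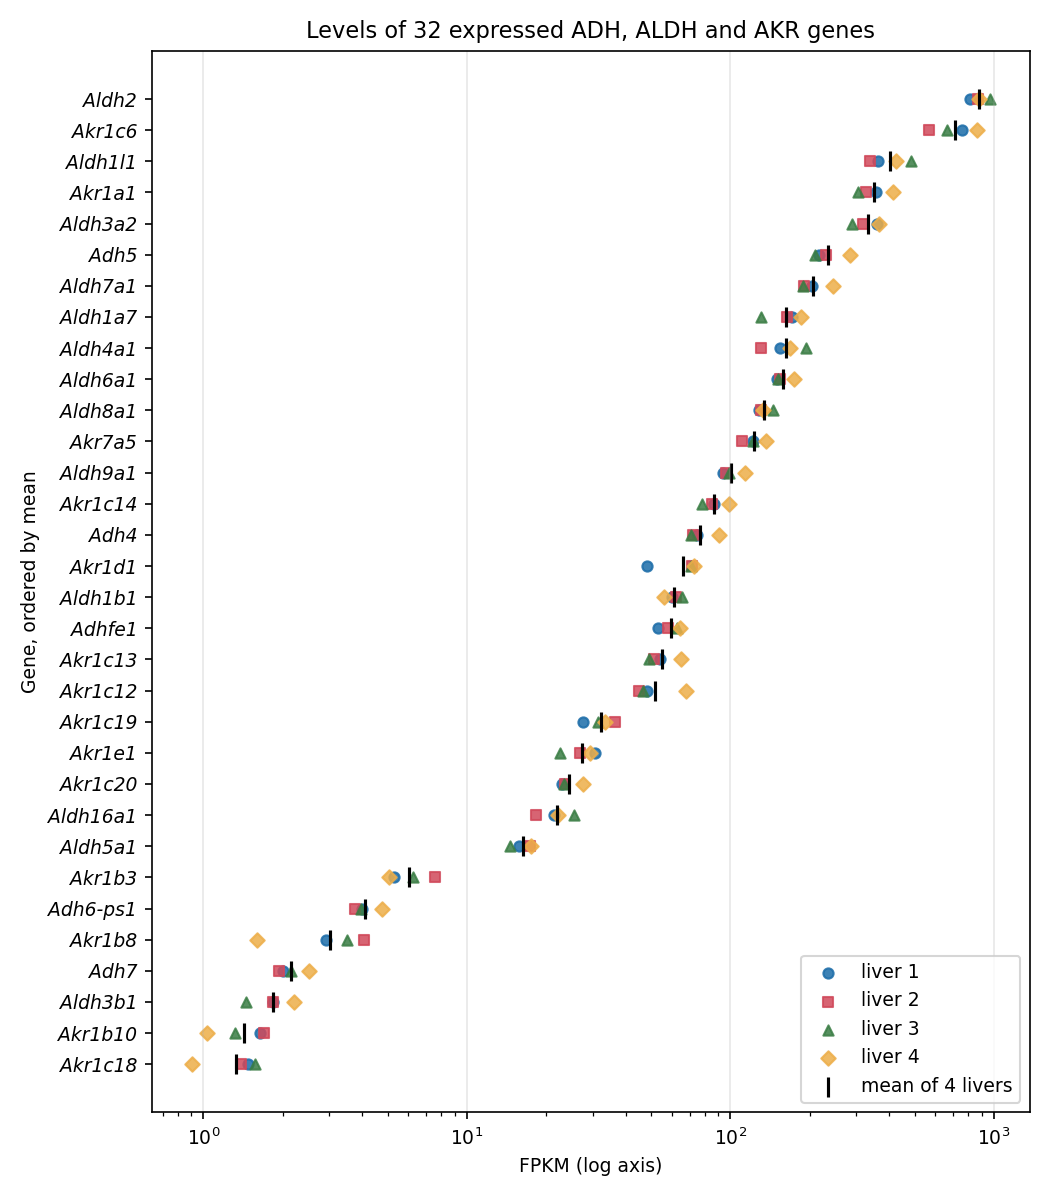
Level of each expressed member in every library, on a log axis of FPKM, with symbols for the 4 livers and a bar for their mean. The genes run from Aldh2 at a mean of 879.9 FPKM to Akr1c18 at 1.33 FPKM, with a step between Aldh5a1 (16.3 FPKM) and Akr1b3 (6.03 FPKM).

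The order of levels was clear between groups of genes and blurred between neighbours. Of the 31 neighbouring pairs in the order of means, 16 stood in the same order in all 4 livers. Aldh2, Akr1c6 and Aldh1l1 were each above the next gene in every liver. Aldh1a7, Aldh4a1 and Aldh6a1, with means of 163, 162 and 158 FPKM, did not keep 1 order: Aldh1a7 exceeded Aldh4a1 in 3 of 4 livers and Aldh4a1 exceeded Aldh6a1 in 2 of 4. Adhfe1 and Akr1c13 likewise changed places, in 2 of 4 livers.

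Among the alcohol dehydrogenases, Adh5 (chromosome 3, 138437200 to 138455499) was the highest, at 216, 231, 209 and 285 FPKM in livers 1 to 4. Adh5 oxidises the glutathione adduct of formaldehyde and also reduces nitrosoglutathione. Liver 4 was the highest and the other livers lay close together. Adh4, a class of ADH that takes larger alcohols and retinol, was at 74.9, 72.2, 70.6 and 90.2 FPKM. Adh5 was between 2.89 and 3.20 times as high as Adh4 within each liver. Adhfe1, a mitochondrial transhydrogenase that acts on hydroxybutyrate, was at 52.97, 57.96, 62.5 and 64.5 FPKM.

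Adh7, known mainly as an enzyme of the stomach, was low, at 2.01, 1.94, 2.15 and 2.53 FPKM. Its deposited span overlaps that of 0610031O16Rik, so its value is uncertain. The pseudogene Adh6-ps1 was at 3.98, 3.75, 3.96 and 4.75 FPKM, above Adh7 in each liver. Adh6a was listed at 0 in all 4 livers. Of the 4 stomach and intestine markers examined, 2 were expressed. Muc5ac, a stomach mucin, was listed at 0 in every liver, whereas Fabp2, a fatty acid binding protein that liver also makes, was between 123 and 166 FPKM. Lgals4, a galectin of the gut, was at 10.2, 7.97, 9.22 and 6.40 FPKM, above Adh7 in each liver.

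Of the ALDH genes that act on acetaldehyde and retinal, Aldh2 (chromosome 5, 121566027 to 121593824) was the highest member of all. It encodes the mitochondrial enzyme that removes most acetaldehyde formed from ethanol. It was at 809, 868, 965 and 877 FPKM in livers 1 to 4, with liver 3 the highest and liver 1 the lowest, a range of 1.19-fold. Aldh1b1, its mitochondrial relative, was at 60.2, 62.2, 65.6 and 55.8 FPKM. The ratio of Aldh2 to Aldh1b1 was 13.4, 14.0, 14.7 and 15.7 in livers 1 to 4. The SD of log2(FPKM + 1) was 0.10 for Aldh2 and 0.10 for Aldh1b1, against a median of 0.17 over the expressed members. It was 0.063 for Aldh2 without liver 3 and 0.062 for Aldh1b1 without liver 4.

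Aldh1a7, a cytosolic enzyme encoded next to its close relative Aldh1a1, was at 172, 164, 131 and 185 FPKM, lowest in liver 3. Of its stretches of 50 bases, 7.49% also occur in transcripts of Aldh1a1, so the split between the pair is uncertain. Aldh1a3, which makes retinoic acid in several epithelia, was between 0.0788 and 0.112 FPKM, or about 5 to 7 fragments per library.

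The folate enzyme Aldh1l1, which oxidises formyl tetrahydrofolate in the cytosol, was at 364, 339.7, 486 and 427 FPKM. Liver 3 was the highest and liver 2 the lowest. Its mitochondrial counterpart Aldh1l2 was between 0.00926 and 0.0646 FPKM, about 1 to 7 fragments per library. The mitochondrial gene was thus near the limit of detection while the cytosolic gene was the third highest member. Other folate enzymes were mixed in this respect. Mthfd1, the cytosolic trifunctional enzyme, was between 63.3 and 85.01 FPKM, and the mitochondrial Mthfd2 between 0.476 and 1.08 FPKM, whereas mitochondrial Shmt2 (123 to 151 FPKM) exceeded cytosolic Shmt1 (77.9 to 96.5 FPKM) in each liver.

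In the ALDH3 group a single gene carried nearly all of the level. Aldh3a2 (chromosome 11, 61244752 to 61267186), the fatty aldehyde dehydrogenase mutated in Sjögren-Larsson syndrome, was at 359, 319.9, 290.03 and 367 FPKM. Aldh3b1 was at 1.84, 1.85, 1.46 and 2.21 FPKM, from 166 to 199 times lower within each liver. Both were lowest in liver 3 and highest in liver 4. Aldh3a1, abundant in cornea, was listed at 0.0392, 0, 0.116 and 0 FPKM. Aldh3b3 was listed at 0.158, 0.0272, 0 and 0 FPKM, and Aldh3b2 at 0 throughout. The 3 Aldh3b genes lie together on chromosome 19, and 23.5% of the 50-base stretches of Aldh3b2 occur also in Aldh3b3, so the split between them is uncertain.

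The group of ALDH genes of amino acid and carnitine pathways was nearly all abundant, with 7 of 8 expressed. Aldh16a1 was counted in this group, although no step of these pathways is assigned to it here. Aldh7a1, which oxidises the semialdehyde formed from lysine, was at 203, 189.9, 188 and 244 FPKM. Aldh4a1 (chromosome 4, 139622894 to 139649691), the mitochondrial enzyme that completes proline breakdown, was at 154, 131, 194 and 169 FPKM. Aldh6a1, of valine and thymine breakdown, was at 149.7, 155, 152 and 175 FPKM. The first and the third were highest in liver 4, while Aldh4a1 was highest in liver 3. In the GENCODE annotation, 45.0% of the 50-base stretches of Aldh4a1 also belong to the overlapping gene model Gm21969.

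Aldh8a1, an enzyme of the kynurenine route of tryptophan breakdown, had a small spread, at 128, 130.3, 145 and 133 FPKM (SD of 0.08 on the log2 scale, and 0.03 without liver 3). Aldh9a1, which forms a carnitine precursor, was at 93.8, 95.8, 99.04 and 114 FPKM. Aldh5a1, which clears succinic semialdehyde from GABA, was at 15.7, 17.4, 14.6 and 17.5 FPKM. Aldh16a1 was at 21.4, 18.4, 25.6 and 22.2 FPKM, with liver 3 the highest and liver 2 the lowest. Aldh18a1, which starts proline synthesis, was the exception, at 0.875, 0.887, 0.739 and 1.18 FPKM.

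The other enzymes of these pathways were measured for comparison of levels. For proline, the breakdown gene Prodh was at 97.1, 100.4, 157 and 134 FPKM in livers 1 to 4. Prodh2, of hydroxyproline breakdown, was at 129, 103, 128 and 126 FPKM. Each was below Aldh4a1 in every liver. The proline synthesis gene Pycr1 (0.0168 to 0.1104 FPKM) was low, as was Aldh18a1. Aldh4a1 was from 143 to 263 times as high as Aldh18a1 within a liver. For lysine, Aass was between 83.2 and 108 FPKM, Pipox between 125 and 167 FPKM and Gcdh between 239.7 and 290.5 FPKM. For valine, Hibadh, Hibch, Bckdha and Bckdhb were all expressed, from Hibch at 44.7 to 59.3 FPKM to Hibadh at 228 to 283 FPKM.

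For tryptophan all 6 genes examined were expressed, from Tdo2 at 571 to 766 FPKM down to Acmsd at 3.09 to 6.83 FPKM. Acmsd encodes the decarboxylase just upstream of Aldh8a1, and was at 6.48, 3.09, 6.83 and 3.67 FPKM, lowest in livers 2 and 4, while Aldh8a1 differed by 1.13-fold. For GABA, Abat was between 81.3 and 119 FPKM and Gad1 was listed at 0. For carnitine, Bbox1, which acts after Aldh9a1, was at 103, 98.06, 101 and 120 FPKM, and Tmlhe was listed at 0. Bbox1 and Aldh9a1 were both highest in liver 4, as were 33.3% of all expressed genes.

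Aldo-keto reductases of small aldehydes and sugars were led by Akr1a1 (chromosome 4, 116636510 to 116651674), the general aldehyde reductase that also serves ascorbate synthesis in mice. It was at 356, 327, 305 and 413 FPKM. Akr7a5, which reduces succinic semialdehyde and toxin-derived dialdehydes, was at 121, 111, 122 and 136 FPKM, and Akr1e1, which reduces anhydrofructose, at 30.6, 26.9, 22.7 and 29.3 FPKM. The Akr1b genes were lower. Akr1b3, the mouse aldose reductase of the polyol pathway, was at 5.28, 7.55, 6.26 and 5.04 FPKM. Akr1a1 was 43.3 to 82.0 times as high as Akr1b3 within a liver. The next enzyme of the polyol pathway, Sord, was between 715 and 999.9 FPKM, and Khk, which phosphorylates fructose, between 406 and 529 FPKM. Of the 50-base stretches of Akr1b3, 56.2% also occur in Gm6644, annotated as a processed pseudogene on chromosome 1, so its value is uncertain.

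Akr1b8 and Akr1b10, reductases of lipid aldehydes and retinal, completed this set. Akr1b8 was at 2.91, 4.09, 3.51 and 1.59 FPKM in livers 1 to 4, and Akr1b10 at 1.64, 1.69, 1.32 and 1.03 FPKM. Akr1b7, known from the adrenal cortex and vas deferens, was at 0.613, 0.177, 0.555 and 0.451 FPKM, about 4 to 13 fragments. Of 3 adrenal cortex markers, Cyp11b1 was listed at 0 in every liver, Star was between 0.301 and 0.507 FPKM and Cyp21a1 between 0.552 and 0.732 FPKM.

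The steroid aldo-keto reductases ran from among the highest members to genes listed at 0, with 8 of 10 expressed. Akr1c6 (chromosome 13, 4434343 to 4457530), a hydroxysteroid dehydrogenase of mouse liver, was at 754, 566, 664 and 866 FPKM. Akr1c14, which reduces the keto group of dihydrotestosterone, was at 86.3, 84.8, 77.9 and 98.4 FPKM. Akr1d1, which reduces the steroid double bond in bile acid synthesis, was at 48.3, 71.7, 71.1 and 72.8 FPKM. Liver 1 was low for Akr1d1 and the other livers lay close together. The ratio of Akr1c6 to Akr1d1 was 15.6 in liver 1, against 7.89, 9.35 and 11.9 for livers 2 to 4.

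Akr1c12 and Akr1c13, reductases of foreign ketones whose promoters are printed above, had almost the same level. Akr1c13 was at 54.2, 51.4, 49.04 and 65.05 FPKM and Akr1c12 at 48.3, 45.1, 46.5 and 67.95 FPKM. Their ratio, Akr1c12 over Akr1c13, lay between 0.878 and 1.04, and liver 4 was the highest for both. Their transcripts share 28.6% of their 50-base stretches, and how the authors' counting split fragments from them is not given in the sources used here, so both values are uncertain. Akr1c19 was at 27.7, 36.4, 31.5 and 33.4 FPKM and Akr1c20 at 23.01, 23.6, 23.4 and 27.7 FPKM. Akr1c18, which inactivates progesterone, was at 1.48, 1.39, 1.57 and 0.903 FPKM, lowest in liver 4. Akr1c21, a kidney enzyme, was between 0 and 0.238 FPKM, and Akr1cl was listed at 0.

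All 5 bile acid genes examined beside Akr1d1 and Akr1c14 were expressed. Cyp7a1, the rate-limiting enzyme of bile acid synthesis, was at 46.0, 62.0, 38.8 and 66.6 FPKM. Hsd3b7, which acts before Akr1d1, was at 262, 179, 239 and 239.6 FPKM, highest in liver 1 and lowest in liver 2. Cyp8b1 was at 291, 199, 236 and 219 FPKM, in the same way highest in liver 1 and lowest in liver 2. Cyp27a1, which oxidises the sterol side chain, was at 255, 232, 278 and 284 FPKM, and Amacr, a racemase of bile acid intermediates, at 55.6, 54.9, 57.6 and 60.03 FPKM. In liver 1, where Akr1d1 was lowest, 2 of the 5 lay above their mean, Hsd3b7 and Cyp8b1, with a median deviation of -0.03 over the list.

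The spread of the members between livers was close to that of other genes. The median SD of log2(FPKM + 1) was 0.17 over the 32 expressed members and 0.16 over all 10541 expressed genes. The ratio of the highest to the lowest liver was under 1.5 for 25 members (78.1%), against 71.6% of all expressed genes. An SD of at least 0.25 was found for 4 members, Akr1c6, Akr1d1, Akr1c12 and Akr1b8, which is 12.5% of the expressed members against 18.3% of all expressed genes. After scaling each library by median ratios the number was 2, Akr1d1 and Akr1b8. It was 7 with a pseudocount of 0.1 and 7 without liver 1. Akr1b8 had the widest spread (SD 0.42), a 2.56-fold range, and was the only expressed member with a range of at least 2-fold. That spread rested on liver 4, since its SD was 0.19 without it, and it was 0.20 with a pseudocount of 5.

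**Figure D2:**
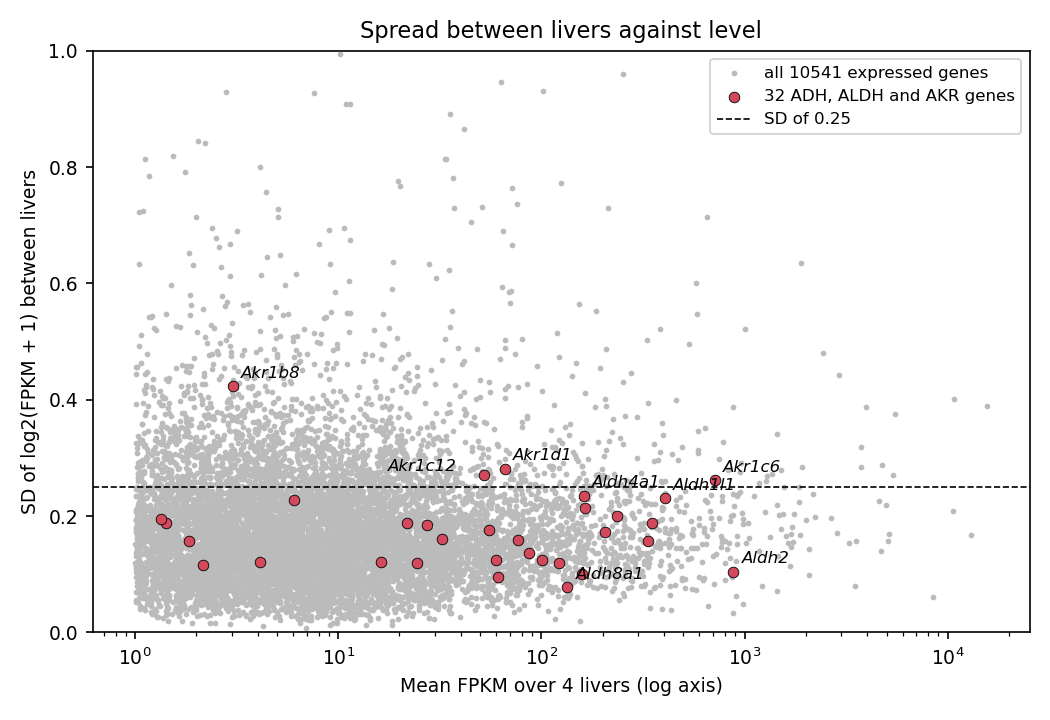
SD of log2(FPKM + 1) between the 4 livers against the mean FPKM (log axis), with all expressed genes in grey and the 32 expressed members in red; 29 genes with an SD above 1 lie outside the axis. The members lie within the grey cloud, with 4 of them at or above the dashed line at an SD of 0.25.

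A liver apart from the other 3 was sought by the gap of the extreme liver divided by the range, against Dixon's 95% critical value for 4 samples. It was passed by 3 of the 32 expressed members (9.38%), against 5.46% of all expressed genes. These were Akr1d1, low in liver 1, and Akr1c12 and Akr1c20, high in liver 4. Akr1c12 shares sequence with Akr1c13, whose ratio was 0.647. Without liver 1 the SD of Akr1d1 was 0.02, and without liver 4 those of Akr1c12 and Akr1c20 were 0.05 and 0.02.

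Liver 4 held the highest value of 20 of the 32 expressed members, against 33.3% of all expressed genes. After scaling by median ratios it was 17 members, against 27.1%. The deviation of liver 4 from the 4-liver mean of log2(FPKM + 1) had a median of 0.15 over the members and was above 0 for 25 of 32, whereas over all expressed genes the median was 0.04 and 60.8% were above 0. With scaling the medians were 0.12 for the members, again in 25 of 32, and 0.02 for all genes. The summed FPKM of liver 4, 570681 over all rows, was also the highest, against 516816 to 524394 in the other livers. In livers 1, 2 and 3 the members lay at -0.03, -0.04 and -0.04. Without liver 4, the median of liver 3 was 0.00092, so its sign changed.

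By role, liver 4 was above the mean for 5 of 5 expressed alcohol dehydrogenases and 7 of 8 steroid AKR genes. It was also above for 6 of 7 genes of the amino acid and carnitine ALDH group, Aldh16a1 included. These counts were the same with scaling. Over all expressed genes, 60.8% were above the mean in liver 4, or 54.0% with scaling. Liver 4 was above the mean for 1 of 3 genes of the acetaldehyde and retinal type and for 3 of 6 aldehyde and sugar AKR genes. Marker genes were counted without scaling, where the median deviation of all expressed genes in liver 4 was 0.04. Hepatocyte markers had 4 of 5 above and a median deviation of 0.21. Summed over all 6 hepatocyte markers, with Alb at 0, the level was 30825, 27716, 26982 and 35031 FPKM in livers 1 to 4. Macrophage markers had 4 of 5 above (median 0.18) and endothelial markers 4 of 5 (median 0.10). Cholangiocyte markers had 1 of 5 above and a median of -0.07. Stellate cell and fibroblast markers had 0 of 5 above and a median deviation of -0.20. Neutrophil markers had 1 of 2 above and a median of -0.38. Of 4 adipocyte markers, Lep and Plin1 were listed at 0 and Adipoq was between 0 and 0.0528 FPKM, while Cfd was at 2.81, 0.961, 0.556 and 4.49 FPKM, above its mean by 0.96 in liver 4. The summed level of the 5 stellate cell and fibroblast markers was 228, 291, 187 and 209.6 FPKM in livers 1 to 4. The part of these markers in the result was not tested.

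**Figure D3:**
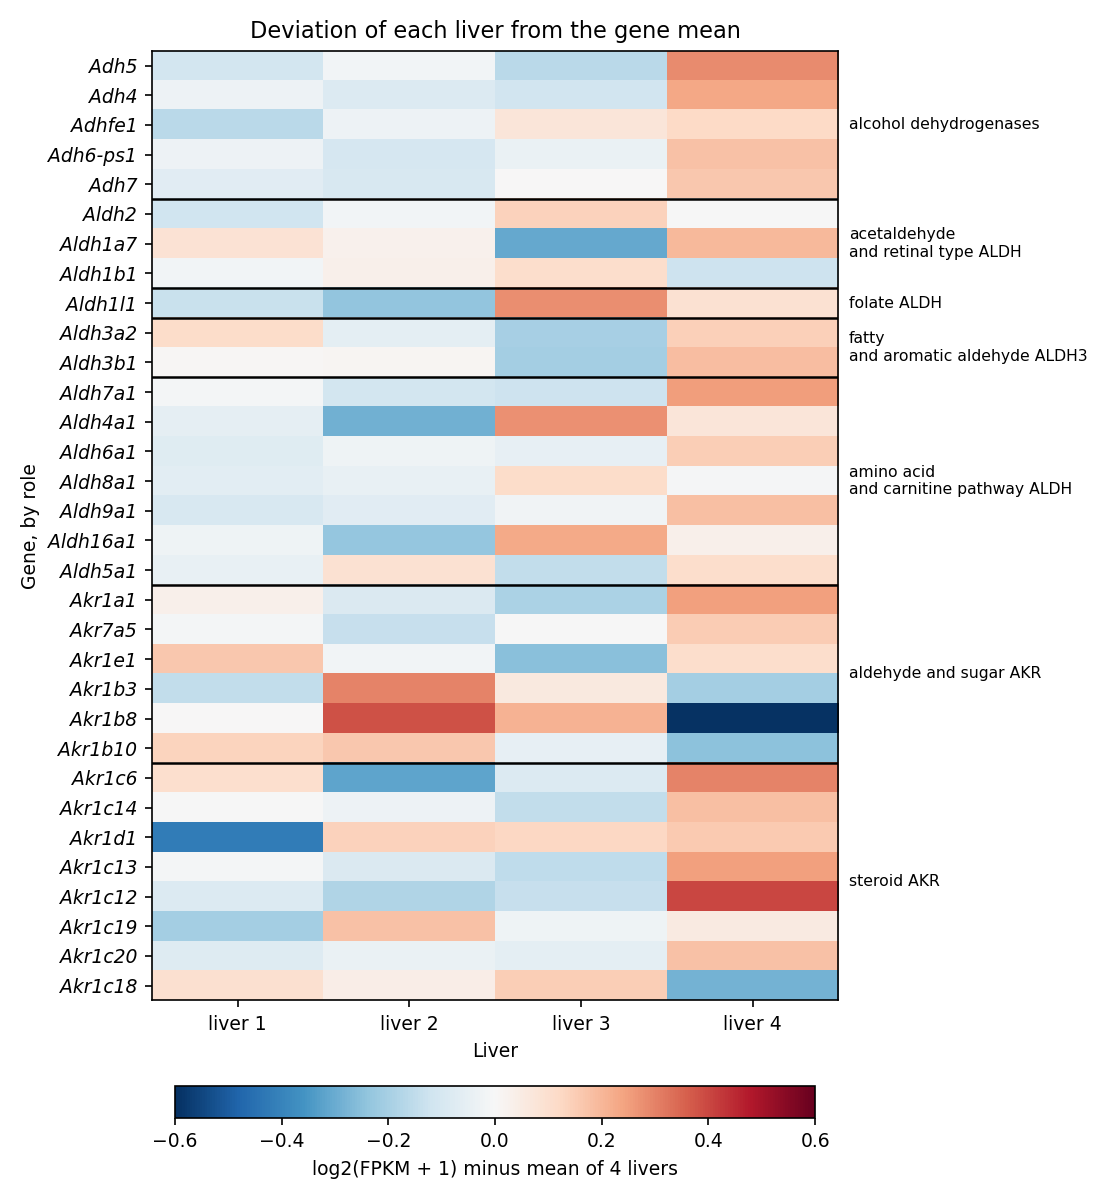
Deviation of each liver from the 4-liver mean of log2(FPKM + 1) for the 32 expressed members, grouped by role; red is above and blue below the mean. Liver 4 is red for 25 of 32 genes, and its blue cells include the 3 Akr1b genes and Akr1c18.

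Members that lie together on a chromosome were then compared. On chromosome 3 the Adh genes between 138210717 and 138455499 had 4 expressed members, Adh7, Adh6-ps1, Adh4 and Adh5, spanning a 109-fold range of means. All 4 were highest in liver 4, with and without scaling. Of these, Adh7, whose span overlaps another row, and the pseudogene Adh6-ps1 were low. On chromosome 13, 9 members lay between 4059591 and 4609164, and the 8 expressed ones spanned a 534-fold range of means, from Akr1c18 to Akr1c6. Of these 8, 5 were highest in liver 4, with and without scaling, and Akr1c18 was the only 1 lowest there. Liver 4 was the highest for 20 of the 32 expressed members and for 33.3% of all expressed genes (27.1% scaled), so the count of 5 of 8 does not set this cluster apart from the other members. Akr1c18 lies between Akr1c14 and Akr1c13, with gaps of 42.2 and 40.6 kb, and both of those were highest in liver 4.

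On chromosome 6, 4 Akr1b genes lay between 34303930 and 34423137, and liver 4 was not the highest for any of the 3 expressed ones. Akr1b3, Akr1b8 and Akr1b10 were all highest in liver 2 and all lowest in liver 4, with and without scaling. These 3 are 9.38% of the expressed members, and 5.69% of all expressed genes had the same highest and lowest liver. Akr1b7, below 1 FPKM, went another way, highest in liver 1 and lowest in liver 2. The summed level of the 4 Akr1b genes was 10.4, 13.5, 11.6 and 8.12 FPKM in livers 1 to 4. Akr1b8 and Akr1b10 share 2.37% of the 50-base stretches of Akr1b8. Of the marker lists, stellate cell and fibroblast markers had 5 of 5 above their mean in liver 2 and 0 of 5 in liver 4, and cholangiocyte markers 4 of 5 and 1 of 5. The 2 neutrophil markers measured were both above in liver 2, and 1 of them in liver 4. Macrophage markers had 5 of 5 above in liver 2 and 4 of 5 in liver 4, and endothelial markers 4 of 5 in both. Hepatocyte markers had 1 of 5 above in liver 2 and 4 of 5 in liver 4. Over all expressed genes, 45.1% were above in liver 2 and 60.8% in liver 4. The part of these cells, and of the acute phase genes raised in liver 2, was not tested.

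**Figure D4:**
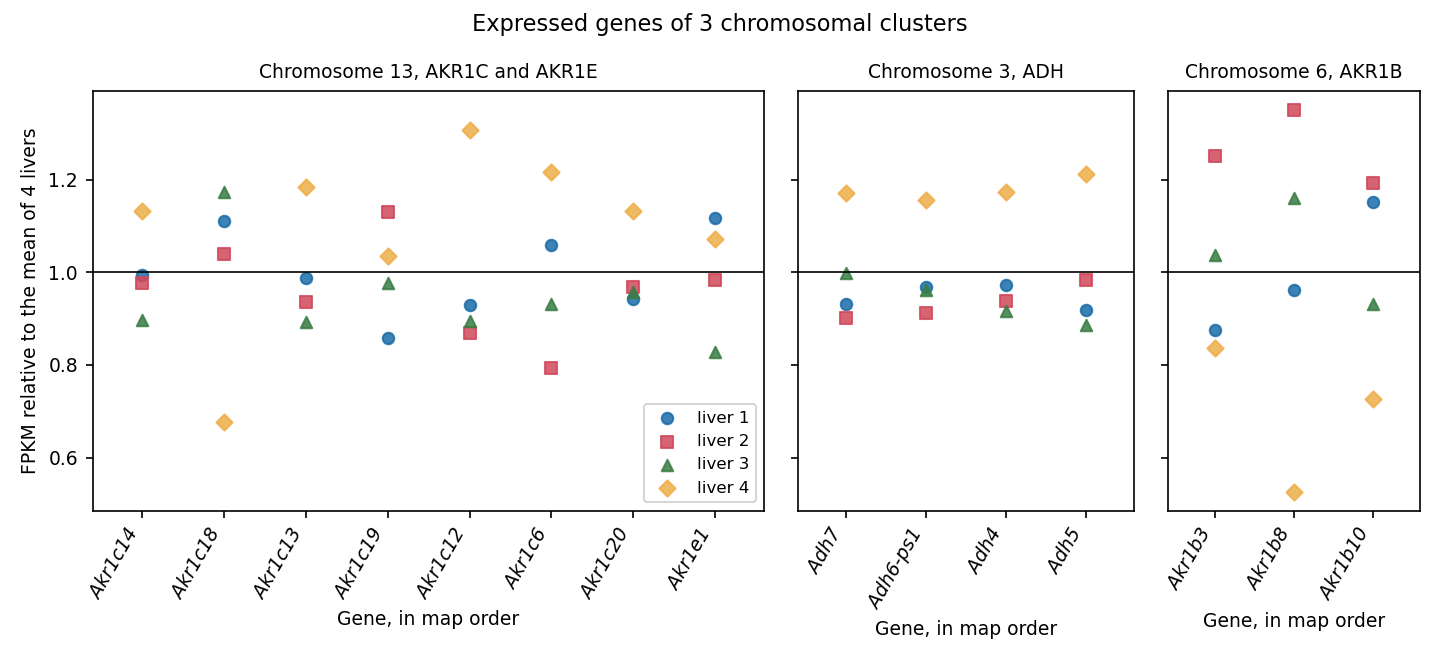
FPKM of each expressed member of 3 chromosomal clusters relative to its 4-liver mean (horizontal line at 1), in map order, with a symbol for each liver. Liver 4 is highest for all 4 genes of the chromosome 3 cluster and lowest for all 3 genes of the chromosome 6 cluster, and Akr1c18 is the only gene of the chromosome 13 cluster lowest in liver 4.

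Aldh1l1, Aldh4a1 and Aldh16a1 were highest in liver 3 and lowest in liver 2. These are 9.38% of the expressed members, below the 12.6% of all expressed genes with this order, so the pattern does not set the members apart. Liver 3 exceeded liver 2 by 1.43-fold for Aldh1l1, 1.48-fold for Aldh4a1 and 1.39-fold for Aldh16a1. Prodh, the first enzyme of proline breakdown, was also highest in liver 3, at 157 FPKM, and lowest in liver 1. Oat, which forms the same semialdehyde from ornithine, was at 95.1, 37.97, 80.6 and 67.7 FPKM, lowest in liver 2, a 2.51-fold range.

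Genes of the same detoxification tasks outside the 3 families were measured too. Of 5 genes of ethanol and formaldehyde handling, 4 were expressed. Cyp2e1, which oxidises ethanol in the endoplasmic reticulum, was at 5236, 4387, 4618 and 7788 FPKM, highest in liver 4. Cat, the peroxisomal catalase, was at 1347, 1344, 1545 and 1598 FPKM. Esd, which acts after Adh5 in formaldehyde removal, was at 139.8, 138, 117 and 151 FPKM, with liver 4 the highest and liver 3 the lowest, as for Adh5. Over all expressed genes, liver 4 was the highest for 33.3% and liver 3 the lowest for 31.4%. Acss2, which activates acetate in the cytosol, was at 79.9, 80.6, 84.02 and 61.3 FPKM and was lowest in liver 4.

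NRF2 is a regulator of several AKR genes. Of the 10 expressed NRF2 targets, the numbers above their mean were 6, 6, 1 and 7 for livers 1 to 4, beside 47.2%, 45.1%, 47.0% and 60.8% of all expressed genes. Nqo1, a much used NRF2 target, was at 6.63, 5.08, 4.41 and 4.97 FPKM, highest in liver 1. Gclc, the catalytic subunit of glutathione synthesis, was at 87.3, 89.3, 60.7 and 89.99 FPKM, low in liver 3. Their median SD, 0.21, compares with 0.17 for the expressed members.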

How the data were processed

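RNA from 4 livers was measured by bulk RNA-seq after poly(A) enrichment, per the labels' protocols. The submitters' processing notes name FastQC 0.10.1, Trim Galore 0.6.3, cutadapt, STAR 2.7.6a, Cufflinks 2.2.1 and the mm10 build. The deposited table gives no unit; its values were taken as FPKM, made by the authors, because they are not whole numbers, sum to different totals and carry identifiers in the form Cufflinks writes. Columns were matched by the sample descriptions, with 0 left over. Starts have 1 added, which raised equality with RefSeq starts from 3.00% to 52.0% of 22565 symbols.

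Values were analysed with Python 3.11.15 and pandas 2.3.3 on the scale log2(FPKM + 1), which compresses differences between low values, and a mean of at least 1 FPKM was called expressed. With 1 group there was no test; spread is the SD over 4 livers, which may be technical. The depth estimate is an approximate estimate, from genes with 1 annotated transcript over 800 bases, less 200 bases, and no count test was made. The gap ratio was checked on simulated data. Shared stretches are identical 50-base words between a member's longest coding transcript and transcripts of other genes in GENCODE vM21. Every member is named. Other genes named are those of the gene lists used, or gene models that share sequence or span with a member. Besides Adh7, the spans of Aldh7a1, Aldh4a1, Aldh6a1, Adhfe1, Aldh16a1 and Aldh5a1 overlap other rows. The members, lists and measures were chosen with earlier results of these data known. Alternatives were a median-ratio scaling, pseudocounts of 0.1 and 5, no filter, a minimum of 5 FPKM, leaving out each liver, and leaving the 10 highest rows out of the total.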

Additional observations from a re-analysis of the deposited data

Results flagged for a closer look

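In a group of 4, a liver is marked when its gap to the nearest other liver, divided by the whole range, is above Dixon's 95% critical value; chance marks about 1 in 20 groups. Ratios of single genes were taken on log2(FPKM + 1), and those of sums and shares without logs. Akr1d1 was low in liver 1 (48.3 FPKM against 71.1 to 72.8 FPKM, ratio 0.943). Akr1c12 (67.95 against 45.1 to 48.3 FPKM, ratio 0.833) and Akr1c20 (27.7 against 23.01 to 23.6 FPKM, ratio 0.859) were high in liver 4. The summed FPKM of all rows was also high in liver 4 (570681, ratio 0.859). The share of the members' sum held by the 2 folate enzymes was 10.7% in liver 3 against 8.05 to 8.44% in the other livers (ratio 0.853). It is nearly all Aldh1l1, whose own level did not pass (ratio 0.363).

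Among genes outside the 3 families, Dhrs3, a retinal reductase, was high in liver 4 (119 against 99.4 to 101 FPKM, ratio 0.892), and Acss2 was low there (61.3 against 79.9 to 84.02 FPKM, ratio 0.839). Gstp1 (676 against 827 to 853 FPKM, ratio 0.864) and Prodh2 (103 against 126 to 129 FPKM, ratio 0.897) were low in liver 2. Gclc (60.7 against 87.3 to 89.99 FPKM, ratio 0.924) and Hmox1 (8.50 against 12.1 to 12.5 FPKM, ratio 0.902) were low in liver 3. Of the marker genes, Apoa1, of hepatocytes, was high in liver 4 (15343 against 11922 to 12319.9 FPKM, ratio 0.870), and Sox9, of cholangiocytes, was low there (3.37 against 4.88 to 5.22 FPKM, ratio 0.841). Orm1, an acute phase gene, was high in liver 2 (1631 against 758 to 812 FPKM, ratio 0.911).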

How the results depend on the processing

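Of 650 values recomputed under the alternatives, 601 moved by less than the spread between livers, or by less than 1.5 times for counts and SDs. Leaving out a liver cannot move a mean, sum or share by as much as its SD, so those could not count as moved. For median deviations the limit was 0.17, the median SD of the expressed members, so a change of sign could pass. The 601 is therefore partly fixed in advance. The number of members with an SD of at least 0.25, which was 4, was 2 with scaling and 7 with a pseudocount of 0.1, and ranged from 3 to 7 when a liver was left out. Members above their mean in liver 1, which numbered 9, were 14 without a filter, 5 with a minimum of 5 FPKM and 8 to 15 when a liver was left out; those in liver 2, which numbered 10, were 6 with that minimum. The share of the summed FPKM was 1.02% without the 10 highest rows. Of 41 moved values of single genes or lists, some of the same gene, 18 came from leaving out liver 4. The median SD of the expressed members, 0.17, ranged from 0.11 to 0.19 when a liver was left out, and the median deviation of liver 3 changed sign to 0.00092 without liver 4. The gap ratio was not run with a liver left out, which leaves 3 samples. No paired analysis was possible because the design has 1 group. Depth limits the members below 1 FPKM, 9 of which rest on at most about 13.3 fragments per library.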

Other observations

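Other carbonyl-handling enzymes outside the 3 families were abundant, with 20 of 22 expressed. Sord was followed by Rdh7, a retinol and steroid dehydrogenase, at 675, 600.1, 594 and 759 FPKM in livers 1 to 4. The aldehyde oxidase Aox3 was at 86.8, 71.2, 88.6 and 107 FPKM and its relative Aox1 at 22.3, 14.6, 14.9 and 21.1 FPKM, so Aox3 exceeded Aox1 in each liver. Liver 4 was above the mean for 16 of the 20 expressed genes, with a median deviation of 0.21, without scaling. Over all expressed genes 60.8% were above the mean in that liver, with a median of 0.04. Cbr3, a carbonyl reductase, was nearly level, at 1.88, 1.94, 1.94 and 1.88 FPKM, while Ptgr1, which reduces the double bond of reactive lipid aldehydes, was at 2.77, 2.24, 1.204 and 1.70 FPKM.

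The glutathione and glyoxalase route of aldehyde removal was expressed in full, with 8 of 8 genes. Gstp1 was between 676 and 853 FPKM, Glo1, which clears methylglyoxal, between 161 and 227 FPKM, and Gsta4, which conjugates hydroxynonenal, between 41.1 and 53.5 FPKM. Liver 4 was above the mean for all 8, with a median deviation of 0.15 without scaling, beside the same 60.8% and 0.04 of all expressed genes.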
